A study of Homo sapiens with 12 samples.

Results

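The MCM helicase genes are 10 of the 19225 entries of the gene count table, taken by their symbols alone: MCM2 to MCM10 and the gene of the MCM binding protein, MCMBP. The list was drawn up with earlier results of these data known, and the study had already named MCM2 and MCM5 among its hub genes. Their transcripts were followed in HN6 and HN30, 2 established human cell lines of oral squamous cell carcinoma (OSCC), in which the cadherin gene FAT1 had been silenced by siRNA to find which transcripts change with its loss. Each line was transfected with a scrambled siRNA (NC) or with either of 2 siRNAs against FAT1, siFAT1-1 and siFAT1-2, and poly(A) RNA was sequenced 24 h later. Every one of the 6 conditions was prepared in 2 repeats at separate times, which gave 4 NC and 8 knockdown (KD) libraries. The sample labels call the knockdowns short hairpins, whereas their descriptions and the methods of the study name siRNAs. Transfection was transient, with the same lipid reagent in every condition, the NC included. P-values for a single line, and for differences between the lines, measure the spread between these repeats. In comparisons over both lines that spread also holds differences in response between the lines or the siRNAs. None of them reaches beyond these 2 cell lines.

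MCM2, MCM3, MCM4, MCM5, MCM6 and MCM7 encode the ring-shaped replicative helicase, which is loaded onto origins in G1 phase and unwinds DNA in S phase once CDC45 and the GINS complex have joined it. MCM10 promotes the firing of the loaded helicase and is not a subunit of the ring, MCM8 and MCM9 form a separate helicase that serves homologous recombination, and MCMBP binds MCM subunits and assists the assembly and storage of the complex. Genes of the replicative ring are textbook targets of E2F factors and are transcribed as cells pass from G1 into S phase, so their transcripts are widely read as a sign of cycling cells.

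Promoter sequences are shown because genes of the ring are known targets of E2F factors. A link between the words in them and the levels in these libraries was not tested. RefSeq on GRCh38.p14 gave 11 promoter windows, each from 250 bases before the annotated start to 50 bases after it, for 8 of the 10 genes (not MCM4 and MCM5). The words TTTCCCGC, TTTCGCGC, TTTGCCGC and TTTGGCGC were searched on both strands, with overlapping words counted as 1 site. They occurred in windows of 6 of the 8 genes (MCM2, MCM3, MCM6, MCM7, MCM8 and MCMBP), against 3.3% of all 35116 windows of the same length. Here and below, genes are counted on one side and single windows on the other. The 2 measures are unlike, since MCM7 and MCMBP had more than 1 window each. MCM3, MCM6 and MCM7 held 2 separate sites each, which 0.1% of all windows did. In MCM6 the sites began at positions -152 and -90, counted from 0 at the first base of the gene, and each was a pair of words overlapping on opposite strands, and MCM2 had such a pair from position 2. Windows of MCM9 and MCM10 held none of the 4 words. MCM10 did hold TTTGGCGG, which differs from a searched word in its last letter. With that last letter free to be C or G, a choice made after the window of MCM10 was seen, 7 of the 8 genes and 6.2% of all windows had a match. The NF-Y motif CCAAT, searched on both strands, was present in 6 of the 8 genes and in 34.6% of all windows, and the cell cycle element TTTGAA in none of the 8 and in 15.2% of all windows. A word in a window is a description of its letters and not a site of binding. Given below, 5′ to 3′ along each gene, are the bases from 190 before the start through the first 30 of the gene for MCM2 (chr3:127598221-127598440, plus strand), MCM3 (chr6:52284713-52284932, minus strand), MCM6 (chr2:135876414-135876633, minus strand), the most upstream start of MCM7 (chr7:100101368-100101587, minus strand) and MCM10 (chr10:13161368-13161587, plus strand), with the 4 searched words and their reverse complements in capitals:
MCM2: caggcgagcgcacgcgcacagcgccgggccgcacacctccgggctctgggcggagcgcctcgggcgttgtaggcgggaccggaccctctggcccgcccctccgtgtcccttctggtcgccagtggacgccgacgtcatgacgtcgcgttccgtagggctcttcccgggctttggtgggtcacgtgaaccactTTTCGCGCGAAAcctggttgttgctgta
MCM3: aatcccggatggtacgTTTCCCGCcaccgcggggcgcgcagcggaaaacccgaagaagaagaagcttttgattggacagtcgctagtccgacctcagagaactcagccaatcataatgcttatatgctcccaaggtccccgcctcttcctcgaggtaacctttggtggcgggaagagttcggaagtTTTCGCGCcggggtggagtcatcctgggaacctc
MCM6: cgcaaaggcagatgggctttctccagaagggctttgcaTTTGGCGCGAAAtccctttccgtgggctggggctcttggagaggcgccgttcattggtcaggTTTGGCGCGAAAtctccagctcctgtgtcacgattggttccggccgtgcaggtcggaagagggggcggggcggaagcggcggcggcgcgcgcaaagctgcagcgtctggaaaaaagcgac
MCM7: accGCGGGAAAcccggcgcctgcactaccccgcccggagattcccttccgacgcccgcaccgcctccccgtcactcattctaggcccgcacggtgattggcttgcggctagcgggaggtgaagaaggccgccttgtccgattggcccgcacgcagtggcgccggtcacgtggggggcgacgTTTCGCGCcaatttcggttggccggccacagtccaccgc
MCM10: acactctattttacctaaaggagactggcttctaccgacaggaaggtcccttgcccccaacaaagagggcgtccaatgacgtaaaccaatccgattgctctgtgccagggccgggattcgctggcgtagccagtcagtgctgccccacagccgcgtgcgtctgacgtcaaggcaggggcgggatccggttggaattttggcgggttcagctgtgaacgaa

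**Figure D1:**
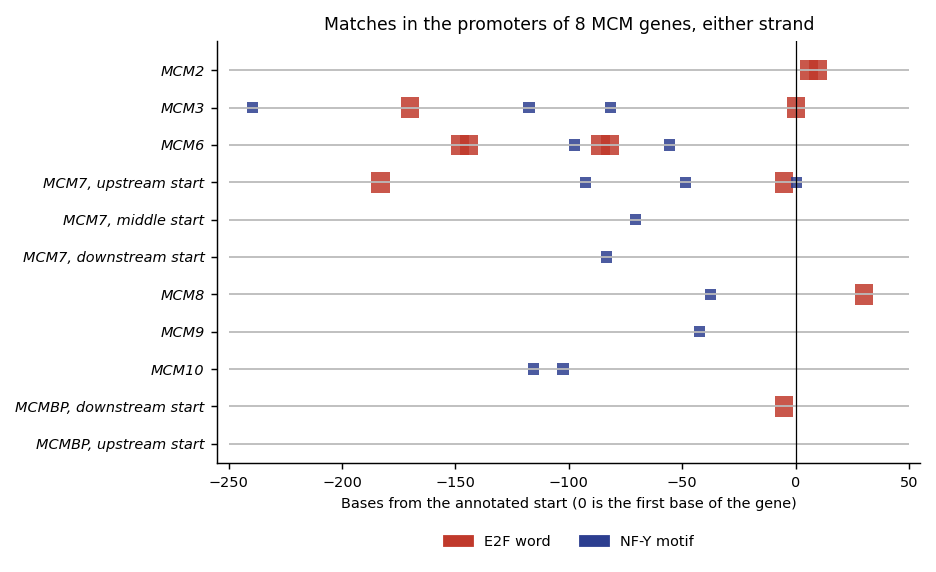
Positions of the 4 E2F words (tall blocks) and of the NF-Y motif (short blocks) on either strand in the 11 promoter windows of 8 MCM genes, in bases from the annotated start. MCM3, MCM6 and the upstream start of MCM7 carry 2 separate E2F sites each, and MCM9 and MCM10 carry none.

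The 12 libraries held 26430049 to 47639010 counts, with 14719 to 15350 genes detected in each. Of the 19225 entries, 13887 passed the filter on low counts and were tested, all 10 MCM genes among them, and the lowest count of any MCM gene in a library was 143 (MCM10, HN30 siFAT1-1 repeat 1). FAT1 itself read 56.8 and 66.7 CPM (counts scaled to the size of each library) in the HN6 NC repeats, 7.61 and 13.5 with siFAT1-1, and 13.2 and 21.4 with siFAT1-2. In HN30 it read 13.6 and 14.7 CPM with NC, 4.86 and 6.26 with siFAT1-1, and 10.8 and 7.74 with siFAT1-2. The target was therefore lower in all KD libraries than in either NC library of the line, and HN30 started from a lower level. As a percentage of the NC mean of the line, FAT1 kept 17.1% with siFAT1-1 and 28% with siFAT1-2 in HN6. In HN30 it kept 39.3% with siFAT1-1 and 65.4% with siFAT1-2, so the transcript fell by a smaller share there. These values are of RNA alone. The study reported lower FAT1 protein with both siRNAs in both lines. Squamous and epithelial markers KRT5, TP63, SFN, CDH1, EPCAM and DSP were present in all libraries, whereas KRT14 had no count in 5 of them. KRT14 was near the floor in the others too, at no more than 2.42 CPM in HN6 and 0.0748 CPM in HN30. Of the 9 markers of other cell types, PTPRC was at 0 in 11 libraries, COL1A2 in 8, DES in 7, PECAM1 in 6 and CD3E in 5, each reaching at most 4.43 CPM. CD68 (16.1 to 121 CPM), COL1A1 (11.1 to 146), PDGFRB (0.98 to 9.37) and VWF (0.115 to 1.53) had counts in all 12 libraries. The summed level of all 9 markers of other cell types in HN30 was 40.2 to 40.4 CPM with NC, 58.5 to 67.7 with siFAT1-1 and 48 to 66.8 with siFAT1-2. In HN6 this sum was 156 to 165 CPM with NC, 163 to 191 with siFAT1-1 and 131 to 272 with siFAT1-2. The summed level of the 9 squamous and epithelial markers was 2587 to 3764 CPM in HN6 and 2388 to 2551 CPM in HN30 with NC, and 5388 to 6267 and 3633 to 3769 CPM with siFAT1-1. With siFAT1-2 it was 2179 to 3079 CPM in HN6 and 1542 to 1990 CPM in HN30. These sums thus moved with the siRNA, and their part in the results on the MCM genes was not tested.

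Per length of merged exons, the ring genes stood above MCM8, MCM9 and MCM10 before any knockdown, and MCMBP was within or next to their range. In HN6 NC libraries MCM7 was at 115 ± 46 CPM per kilobase (SD, n = 2), MCM2 at 58.5 ± 25.4, MCM3 at 46.2 ± 21.9, MCM5 at 38.8 ± 11, MCM4 at 38.4 ± 17.7 and MCM6 at 13.5 ± 4.74. MCM6 was thus the least abundant transcript of the ring in HN6, below MCMBP at 22.2 ± 4.98. Outside the ring, MCM10 stood at 4.20 ± 1.25, MCM8 at 3.89 ± 1.46 and MCM9 at 0.879 ± 0.199. The repeats of MCM2, MCM3, MCM5 and MCM4 overlapped from one gene to the next in this order, as did those of MCM10 and MCM8, and the other neighbours did not. In HN30 NC libraries the order began with MCM7 at 127 ± 20.9, MCM2 at 72.8 ± 25.8 and MCM3 at 40 ± 13.8, and ended with MCM10 at 7.2 ± 0.339, MCM8 at 4.59 ± 1.29 and MCM9 at 1.02 ± 0.267. Between them MCM6 (29.8 ± 7.96), MCM4 (28.6 ± 4.42), MCM5 (25 ± 7.39) and MCMBP (23.4 ± 1.65) followed each other with overlapping repeats. The merged exons of MCM4 (9852 bases) and MCM5 (7268) are far longer than their longest coding transcripts (4183 and 3458), and with those transcripts as the length the orders changed: MCM4 came 2nd and MCM5 3rd in HN6, and in HN30 MCM4 came 3rd, MCM5 4th, MCM3 5th and MCM6 7th, below MCMBP. Without strand information, reads of MCM2 and of an antisense lncRNA over 23.6% of its exons cannot be told apart. MCM8 shares 33.3% of its exons with a readthrough gene on the same strand, and strand information would not separate their reads. For MCM7 and AP4M1, on opposite strands, the shared part is 7.9%.

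With NC siRNA no MCM gene was called different between the 2 lines in the main edgeR fit, although MCM6 was in several other fits. None of the 10 was called at the thresholds used by the study (P below 0.05 before adjustment, with a log2 fold change beyond 1 in either direction), while 14.4% of all tested genes were called lower and 16.3% higher in HN30 than in HN6. MCM6, read at 41.8 and 69.5 CPM in HN6 and at 146 and 99.9 CPM in HN30, came nearest, since its repeats did not overlap between the lines. Its log2 difference was 1.15 ± 0.54 (SE; adjusted p = 0.131, quasi-likelihood test of edgeR, Benjamini-Hochberg adjusted over all genes). With scaling by total counts alone, and with no filter on low counts, it was called higher in HN30. MCM6 was called higher in HN30 with limma-voom, with DESeq2, with the repeat as a replicate block, and without HN6 NC repeat 2 or either HN6 siFAT1-2 repeat, which share the estimate of the spread.

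After FAT1 knockdown, transcripts of the replicative ring were lower than in NC over both lines together. MCM2, MCM4, MCM5 and MCM6 were called lower, by 1.22, 1.07, 1.29 and 1.03 on the log2 scale, and MCM7 and MCMBP passed the P threshold with smaller changes. All 10 genes had a negative log2 fold change, with a median of -0.85 against 0.02 for all tested genes. No MCM gene passed an adjusted p of 0.05 with edgeR. Comparisons with NC share the same NC libraries and are not independent of each other. In bulk RNA, fewer cells that express these genes and less of their RNA per cell cannot be told apart.

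MCM5, a ring subunit, was the most regular of them. In HN6 it read 225 and 338 CPM in the NC repeats, 204 and 177 CPM with siFAT1-1, and 61.4 and 180.3 CPM with siFAT1-2. The HN30 values were 220.0 and 144 CPM with NC, 38.6 and 59.5 CPM with siFAT1-1, and 39.6 and 88.7 CPM with siFAT1-2. All 8 KD libraries were lower than either NC library of the same line, which held for no other MCM gene and for 3.15% of all tested genes. MCM2, whose product also binds histones, read 191 and 361 CPM in HN6 NC, 197 and 181 with siFAT1-1 and 48.7 and 194 with siFAT1-2. In HN30 it fell from 429.5 and 257 CPM with NC to 59.1 and 86.6 CPM with siFAT1-1 and to 132 and 186 CPM with siFAT1-2. The groups of MCM2 did not overlap in HN30, whereas in HN6 the first NC repeat was at the level of 3 of the 4 KD libraries.

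MCM4, one of the subunits of the catalytic core with MCM6 and MCM7, read 255 and 502 CPM in HN6 NC, 286 and 342 CPM with siFAT1-1 and 80.8 and 333 CPM with siFAT1-2. Its HN30 values were 313 and 251 CPM with NC, 68.9 and 89.9 CPM with siFAT1-1 and 79.3 and 148 CPM with siFAT1-2. All 4 KD libraries of HN30 were below both NC libraries, and in HN6 siFAT1-2 repeat 1 alone was. MCM6 read 41.8 and 69.5 CPM in HN6 NC, 26.9 and 34 CPM with siFAT1-1, and 22.7 and 75.2 CPM with siFAT1-2. In HN30 it stood at 146 and 99.9 CPM with NC, 18.2 and 24.6 CPM with siFAT1-1, and 41.6 and 88.5 CPM with siFAT1-2. Of its 8 KD libraries 7 were below both NC libraries of their line, and HN6 siFAT1-2 repeat 2 was above both.

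MCM7 read 407 and 729 CPM in HN6 NC, 405 and 382 CPM with siFAT1-1, and 189.7 and 419 CPM with siFAT1-2. With NC in HN30 it read 704 and 557 CPM, against 218 and 255 CPM with siFAT1-1 and 243 and 409 CPM with siFAT1-2. MCM7 was below both NC libraries in 7 of 8 KD libraries, although the margin in HN6 siFAT1-1 repeat 1 was small. With the size factors of DESeq2 that library was above HN6 NC repeat 1, at 83.0 against 82.8 CPM per kilobase. MCM3 read 112 and 225 CPM in HN6 NC, 134 and 155 CPM with siFAT1-1, and 59.3 and 193 CPM with siFAT1-2. Its HN30 values were 181 and 110.4 CPM with NC, 32 and 49.2 CPM with siFAT1-1, and 68.3 and 110.3 CPM with siFAT1-2. In HN6 3 of the 4 KD libraries of MCM3 lay between the NC repeats, and in HN30 siFAT1-2 repeat 2 was level with the lower NC repeat.

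**Figure D2:**
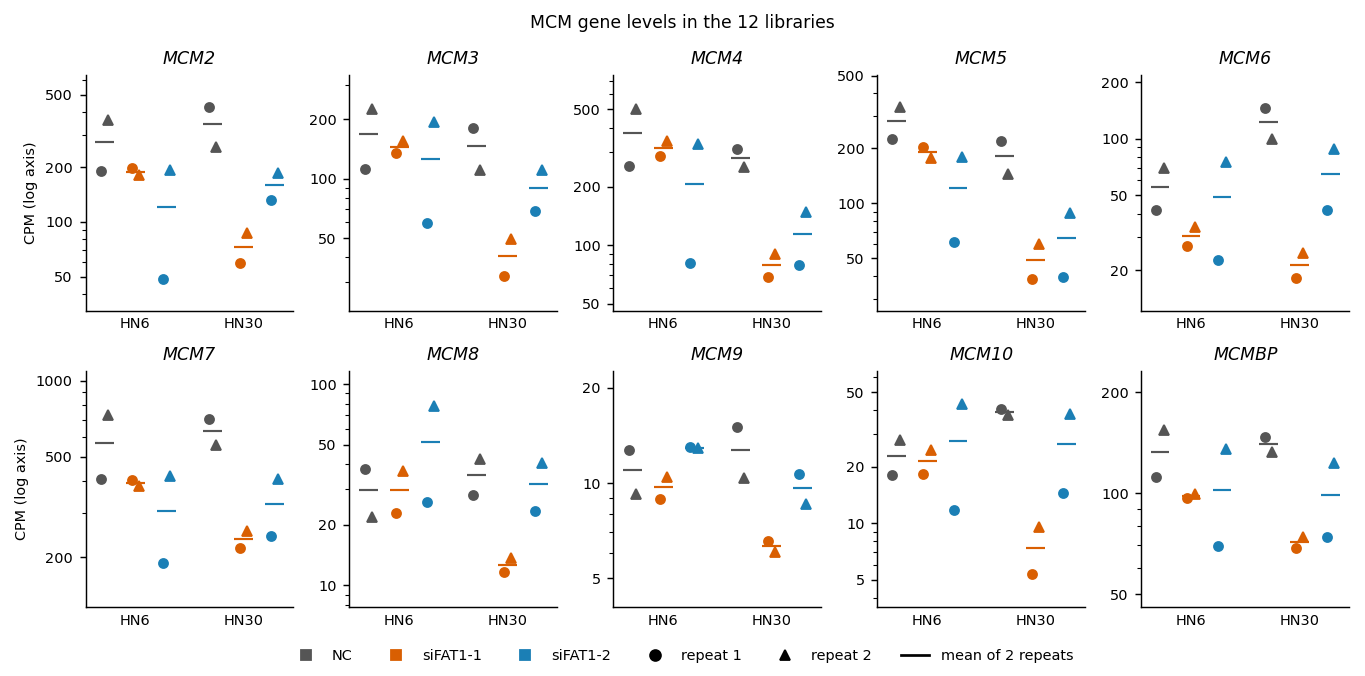
CPM (log axes) of the 10 MCM genes in each of the 12 libraries, with circles for repeat 1, triangles for repeat 2, colours for the siRNA and lines for the mean of 2 repeats. MCM2 to MCM7 and MCMBP are below both NC libraries in all 4 KD libraries of HN30, and in HN6 siFAT1-2 repeat 1 lies below repeat 2 for each of these genes. For MCM3 in HN30, siFAT1-2 repeat 2 is level with the lower NC repeat.

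Over both lines, edgeR with line as a term gave log2 fold changes of -1.29 ± 0.32 for MCM5 (SE; adjusted p = 0.1001), -1.22 ± 0.38 for MCM2 (adjusted p = 0.166), -1.07 ± 0.36 for MCM4 (adjusted p = 0.196) and -1.03 ± 0.43 for MCM6 (adjusted p = 0.296). These 4 of 10 genes were called lower, against 1.04% of all tested genes. A P under 0.05 with a negative change was reached by 6 of the 10, against 7.75% of all, MCM7 (-0.94 ± 0.25, adjusted p = 0.117) and MCMBP being the others. MCM3 missed it at -0.76 ± 0.36 (adjusted p = 0.359). None of the 10 passed an adjusted p of 0.05 with edgeR, against 0.252% of all genes that were lower by that rule, whereas the DESeq2 Wald test passed 2 of the 10, against 1.97% of all genes on the lower side. The count of 4 fell to 2 without HN6 siFAT1-2 repeat 1, without HN30 siFAT1-1 repeat 1 or without HN30 siFAT1-2 repeat 1, and to 1 (MCM5) without HN30 NC repeat 1. MCM5 kept its call in all 12 fits that left out a library. MCM6 lost its call in 8 of them, all but those without HN6 NC repeat 1, HN6 siFAT1-1 repeat 2, HN6 siFAT1-2 repeat 2 or HN30 siFAT1-2 repeat 2.

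The log2 fold change was lower in HN30 than in HN6 for all 10 genes, although the difference between the lines passed the thresholds for none. FAT1 itself changed less in HN30, by -0.98 ± 0.30 (adjusted p = 0.204, edgeR), short of the fold threshold. In HN6 its change was -2.19 ± 0.29 (adjusted p = 0.0558, edgeR). In HN30 the 6 ring genes and MCM10 were called lower, 7 of 10 genes against 3.19% of all tested genes, and all 10 had negative changes with a median of -1.38, against -0.01 for all genes. The log2 fold changes in HN30 were -1.72 ± 0.45 for MCM6, -1.70 ± 0.43 for MCM5, -1.68 ± 0.46 for MCM2, -1.57 ± 0.47 for MCM4, -1.28 ± 0.45 for MCM3 and -1.18 ± 0.33 for MCM7 (adjusted p between 0.153 and 0.242, edgeR). A P under 0.05 was reached by 9 of 10, MCM8 being the exception, against 9.07% of all genes. None passed an adjusted p of 0.05 (lowest 0.153 with edgeR), which 0.0288% of all genes did on the lower side, while the DESeq2 Wald test passed 5, against 2.20% of all. All 4 KD libraries lay below both NC libraries for the 6 ring genes and MCMBP, against 11.1% of all genes. For MCM3 this rested on 110.28 CPM in siFAT1-2 repeat 2 against 110.36 CPM in NC repeat 2. With the size factors of DESeq2 the order of those libraries turned, at 29.9 against 29.6 CPM per kilobase. Without HN30 NC repeat 1 the count of called genes was 4 (MCM4, MCM5, MCM6 and MCM7). MCM3 was also lost without repeat 1 of HN30 siFAT1-1 or of HN30 siFAT1-2.

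In HN6 none of the 10 MCM genes was called, against 1.54% of all genes called lower. None had a P under 0.05, which 1165 of the 13887 tested genes had with a negative change. At such shares, no call among 10 genes does not set them apart from other genes. With the repeat as a replicate block MCM5 and MCM7 did have a P under 0.05, as they did with no filter on low counts. MCM5 also did with limma-voom, and none was called in these fits. The ring genes all had negative changes, from -0.89 ± 0.43 for MCM5 (adjusted p = 0.390) to -0.32 ± 0.46 for MCM3 (adjusted p = 0.783), and MCM5 was the only one with all 4 KD libraries below both NC libraries, against 9.23% of all genes. MCM8, MCM9 and MCM10 had positive changes of 0.40, 0.03 and 0.08. The 2 HN6 siFAT1-2 repeats stood far apart: MCM2 read 48.7 CPM in repeat 1 and 194 CPM in repeat 2. Without HN6 siFAT1-2 repeat 2 the count was 5 (MCM2, MCM4, MCM5, MCM6 and MCM7), and without HN6 NC repeat 1 it was 2 (MCM2 and MCM7).

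The test of the difference between the lines, the interaction of line and knockdown, gave a negative value (lower in HN30) for all 10 genes and called none, against 1.40% of all genes. MCM10 had the smallest P, with -1.57 ± 0.74 (adjusted p = 0.974, 95% interval -3.22 to 0.08), and for the ring genes the intervals reached from -2.66 to 0.70. With the repeat as a replicate block MCM10 and MCM6 were called, with DESeq2 MCM10 was, and without HN6 siFAT1-2 repeat 1 there were 6 calls (MCM2, MCM3, MCM4, MCM6, MCM8 and MCM10). Without HN30 siFAT1-2 repeat 2 MCM10 and MCM6 were called, without HN30 siFAT1-1 repeat 2 MCM10, and without HN6 NC repeat 1 MCM8.

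**Figure D3:**
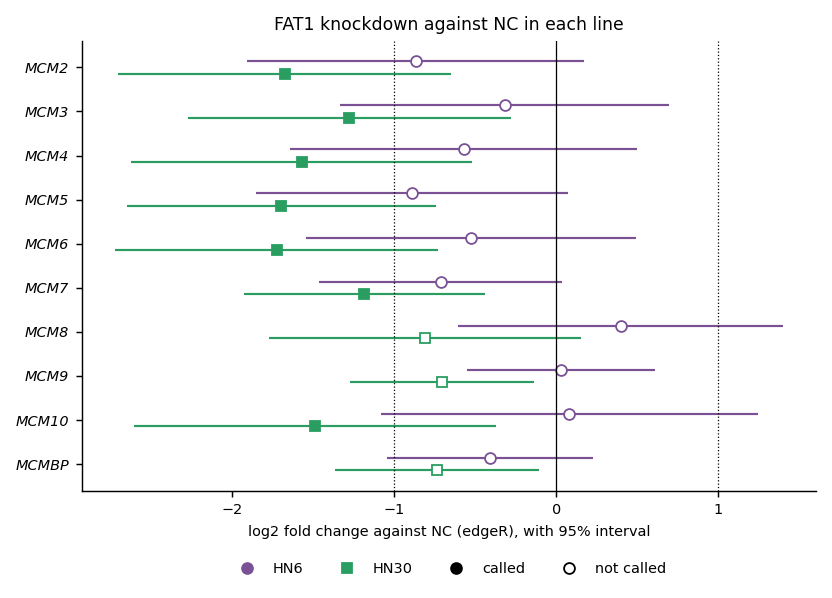
Log2 fold changes of KD against NC in HN6 (circles) and HN30 (squares) for the 10 MCM genes, with 95% intervals from edgeR; filled symbols were called and dotted lines mark the fold threshold. In HN30 the 6 ring genes and MCM10 are called lower, in HN6 none is, and the intervals of the 2 lines overlap.

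Summed over the 6 ring genes, the level in HN30 was 380.2 and 267 CPM per kilobase with NC, 82 and 106 with siFAT1-1, and 119 and 201 with siFAT1-2. In HN6 it was 220.3 and 399.6 with NC, 224 and 225 with siFAT1-1, and 87 and 255 with siFAT1-2. As a percentage of the NC mean of the line, HN30 thus kept between 25.4% and 62% in KD libraries, and HN6 between 28.1% and 82.4%, where the first HN6 NC repeat itself was at 71.1%. The 8 markers of proliferating cells (MKI67, TOP2A, CCNA2, CCNB1, CDK1, BIRC5, AURKB and PLK1) moved with the sum in part. Their summed level was 1003 and 1641 CPM in HN30 NC, 422 and 474 CPM with siFAT1-1, and 291 and 1019 CPM with siFAT1-2. HN6 had 873 and 1164 CPM with NC, 870.0 and 948 CPM with siFAT1-1, and 299 and 1683 CPM with siFAT1-2. HN6 siFAT1-2 repeat 1 was thus low in both sums, and repeat 2 lay between the NC repeats for the ring and above all other libraries for the markers. Over both lines all 8 markers had negative changes, 2 with a P under 0.05 (PLK1 -0.92, AURKB -0.88) and none called; in HN30 1 was called (MKI67 -1.70). The part of cell proliferation in the level of the MCM genes was not tested.

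**Figure D4:**
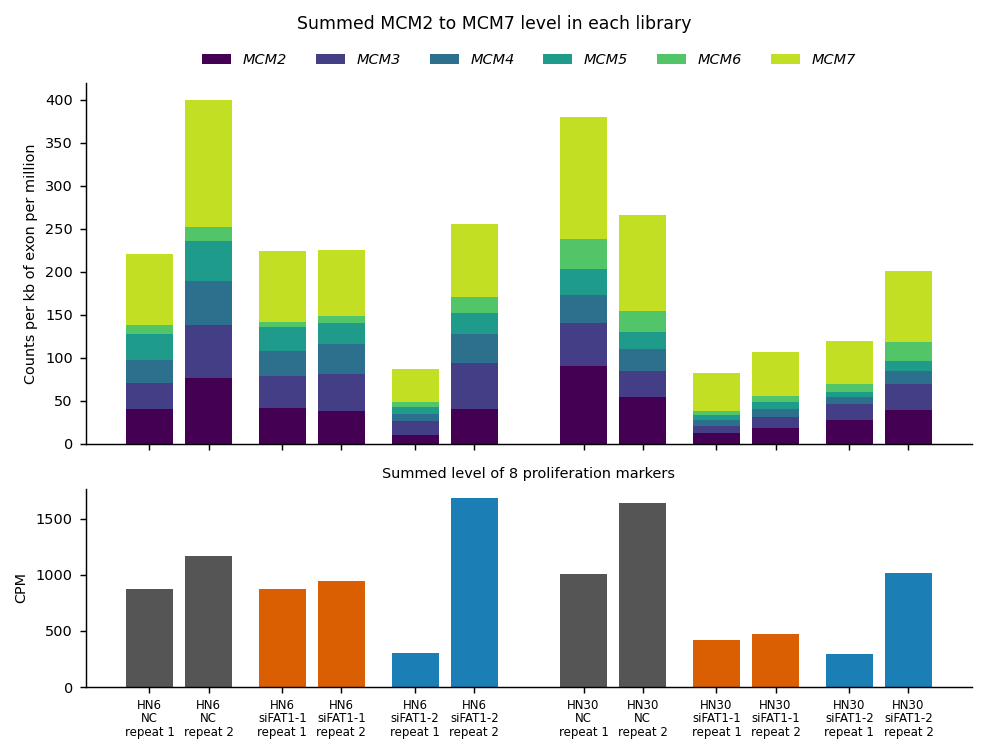
Upper panel, summed level of MCM2 to MCM7 in each library (CPM per kilobase of merged exons, stacked by gene); lower panel, summed CPM of 8 proliferation markers in the same libraries. The 4 HN30 KD libraries have ring sums of 82 to 201 against 267 and 380.2 with NC, and HN6 siFAT1-2 repeat 1 is low in both panels.

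The 6 transcripts did not change in equal measure. MCM7 made up 33.1% to 53.6% of the ring sum in the 12 libraries, with the 2 highest shares in HN30 siFAT1-1 (53.6% and 48.2%, against 37.3% and 42.1% with NC). The share of MCM6 in HN6 was 4.59% and 4.21% with NC, 2.91% and 3.65% with siFAT1-1, and 6.31% and 7.12% with siFAT1-2. In HN30 it was 9.32% and 9.06% with NC, 5.37% and 5.58% with siFAT1-1, and 8.45% and 10.7% with siFAT1-2. In both lines siFAT1-1 libraries had the lowest MCM6 shares, with no overlap with the other groups. MCM5 had its lowest shares with siFAT1-2, at 9.71% in both HN6 repeats against 14.1% and 11.6% with NC, and at 4.58% and 6.08% in HN30 against 7.96% and 7.43%. A share falls when other members rise, so these values show unequal change and not the direction of any one gene.

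MCM10, the initiation factor, read 18.1 and 27.7 CPM in HN6 NC, 18.3 and 24.5 CPM with siFAT1-1, and 11.8 and 43.2 CPM with siFAT1-2. In HN30 it read 40.6 and 38 CPM with NC, 5.35 and 9.50 CPM with siFAT1-1, and 14.6 and 38.2 CPM with siFAT1-2. HN30 siFAT1-1 libraries were far below NC, whereas siFAT1-2 repeat 2 lay between the NC repeats. Its log2 fold change was -1.49 ± 0.50 in HN30 (adjusted p = 0.234, edgeR), -0.61 ± 0.48 over both lines (adjusted p = 0.587) and 0.08 ± 0.52 in HN6 (adjusted p = 0.964). The call in HN30 was lost without HN30 NC repeat 1 and in a fit of the HN30 libraries alone, where the P threshold was missed.

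MCM8 and MCM9, the recombination helicase, showed no common direction over the lines. MCM8 read 37.8 and 22 CPM in HN6 NC, 22.9 and 37 CPM with siFAT1-1, and 26 and 77.6 CPM with siFAT1-2. In HN30 it read 28.3 and 42.3 CPM with NC, 11.7 and 13.6 CPM with siFAT1-1, and 23.5 and 40.7 CPM with siFAT1-2. Only the siFAT1-1 libraries of HN30 and siFAT1-2 repeat 1 were below both NC libraries of their line, and HN6 siFAT1-2 repeat 2 was above both. Its log2 fold changes were -0.14 ± 0.42 over both lines (adjusted p = 0.905), 0.40 ± 0.45 in HN6 and -0.81 ± 0.43 in HN30 (adjusted p = 0.440), and the first turned positive, at 0.13 and 0.01, without HN30 NC repeat 2 and without HN30 siFAT1-1 repeat 1. MCM9 read 12.7 and 9.22 CPM in HN6 NC, and 8.92 to 13 CPM in the 4 KD libraries, of which 1 was below and 2 were above both NC repeats. In HN30 it read 15.1 and 10.4 CPM with NC, 6.55 and 6.07 CPM with siFAT1-1, and 10.7 and 8.59 CPM with siFAT1-2, with siFAT1-2 repeat 1 between the NC repeats. MCM9 in HN30 had a log2 fold change of -0.70 ± 0.25 (adjusted p = 0.249), and over both lines of -0.33 ± 0.24 (adjusted p = 0.554). The MCM8 and MCM9 partner HROB, listed under its older symbol C17orf53 and named here after its values were seen, had a log2 fold change of -0.95 ± 0.22 over both lines (adjusted p = 0.0806).

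MCMBP, the partner of the complex, had a smaller log2 fold change over both lines than any ring gene. It read 112 and 154 CPM in HN6 NC, 97 and 99.2 CPM with siFAT1-1, and 69.6 and 135 CPM with siFAT1-2. In HN30 it read 147 and 133 CPM with NC, 68.6 and 74.2 CPM with siFAT1-1, and 73.9 and 123 CPM with siFAT1-2. Of the 8 KD libraries 7 were below both NC libraries of their line, HN6 siFAT1-2 repeat 2 being the exception. The log2 fold change over both lines was -0.57 ± 0.21 (adjusted p = 0.233), short of the fold threshold, with -0.41 ± 0.28 in HN6 and -0.74 ± 0.28 in HN30.

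Each siRNA was also set against NC with both lines in the fit. With siFAT1-1 all 10 MCM genes had negative changes, 9 with a P under 0.05 (not MCM8), against 10.2% of all genes, and 5 were called lower (MCM2, MCM4, MCM5, MCM6 and MCM10), against 2.35% of all genes. MCM6 had the largest change, at -1.69 ± 0.44 (adjusted p = 0.0577), followed by MCM2 at -1.30 ± 0.47 and MCM10 at -1.20 ± 0.54. None passed an adjusted p of 0.05 with edgeR (2.09% of all genes did, on the lower side). With siFAT1-2, 9 of 10 changes were negative, and 3 genes were called lower (MCM2, MCM4 and MCM5), against 4.75% of all genes. A P under 0.05 with a negative change was reached by 4 of the 10, against 2223 of the 13887 tested genes. MCM5, at -1.38 ± 0.39 (adjusted p = 0.0409), was the one gene of the 10 past an adjusted p of 0.05, which 7.47% of all genes passed on the lower side. MCM8 had a positive change of 0.27 ± 0.39 with siFAT1-2. The count with siFAT1-1 was 1 (MCM6) without HN30 siFAT1-1 repeat 1, 2 without HN30 NC repeat 1 or HN30 siFAT1-1 repeat 2, 3 without HN6 siFAT1-2 repeat 2, HN30 NC repeat 2 or HN30 siFAT1-2 repeat 1, and 8 without HN6 siFAT1-1 repeat 2. With siFAT1-2 it was 1 (MCM5) without HN6 siFAT1-2 repeat 1, HN30 NC repeat 1 or HN30 siFAT1-2 repeat 1.

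Set directly against each other, the 2 siRNAs differed for 2 of the 10 genes. MCM6 was lower with siFAT1-1 by 1.08 on the log2 scale (SE 0.43, adjusted p = 0.0968) and MCM8 by 1.03 (SE 0.40, adjusted p = 0.0912), where 5.11% of all genes were called lower with siFAT1-1. Neither call was kept by limma-voom or with the repeat as a replicate block, where 0 genes were called. The same count of 0 was found without HN6 siFAT1-2 repeat 2, HN30 siFAT1-1 repeat 1, HN30 siFAT1-1 repeat 2 or HN30 siFAT1-2 repeat 2, and without HN6 siFAT1-1 repeat 1 only MCM6 was called. For MCM7 the difference was -0.02 with a 95% interval of -0.66 to 0.62, for MCM5 0.19 (-0.66 to 1.03), for MCM4 0.11 (-0.83 to 1.05) and for MCM2 -0.16 (-1.17 to 0.86), so no difference was detectable within those bounds. For MCM10 the difference was -0.96 (-2.09 to 0.17) and for MCM9 -0.505 (-1.01 to 0.004). Neither was called, and both intervals include 0.

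**Figure D5:**
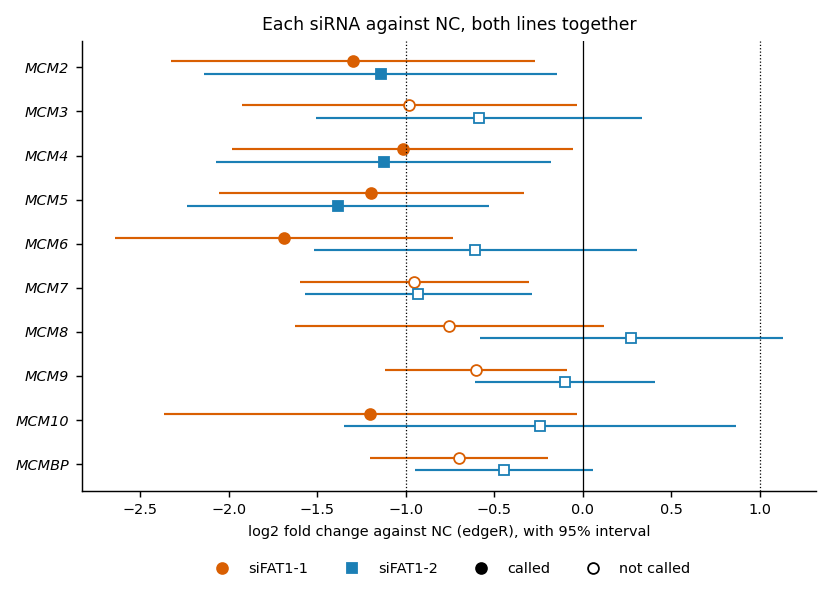
Log2 fold changes of siFAT1-1 (circles) and siFAT1-2 (squares) against NC over both lines for the 10 MCM genes, with 95% intervals from edgeR; filled symbols were called. MCM2, MCM4 and MCM5 are called lower with both siRNAs, and MCM6 and MCM10 with siFAT1-1.

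Of 27 genes that load or activate the helicase, or work with MCM8 and MCM9, all were tested. Over both lines 24 had negative changes, 8 of them with a P under 0.05, and CDC45 alone was called lower, against 1.04% of all genes. CDC45, which joins the ring to form the active helicase, had a log2 fold change of -1.28 ± 0.40 over both lines (adjusted p = 0.167), -1.83 ± 0.46 in HN30 and -0.90 ± 0.47 in HN6. The median of the 27 was -0.54 over both lines, against 0.02 for all genes. In HN30 26 were negative and 12 were called lower, against 3.19% of all genes, with a median of -0.98, and in HN6 15 were negative and none was called, with a median of -0.13. Split by role, 3 of 9 origin licensing genes and 8 of 17 helicase activation genes were called lower in HN30. In the interaction of line and knockdown 5 of the 27 were called, all lower in HN30 and all helicase activation genes, against 1.40% of all genes and with an adjusted p of 0.974.

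Across the 12 libraries, with log2 CPM centred within each line, the 15 pairs of ring genes had Pearson correlations of 0.81 to 0.98 (median 0.93). With the mean of the 6, MCMBP had a correlation of 0.96, MCM10 of 0.88, MCM8 of 0.54 and MCM9 of 0.43. Of 13877 genes outside the 10, the closest to the ring mean were CDC45 (0.99), DNMT1 (0.98), C16orf59 (0.98), CDT1 (0.98) and RFC2 (0.97). DNMT1 encodes the maintenance DNA methyltransferase, CDT1 the factor that loads the ring onto origins, and RFC2 a subunit of the clamp loader. Log2 fold changes in HN30 were -0.94 for DNMT1 and -1.28 for CDT1. These points share libraries, depth and repeats, and the values are a description over 12 libraries.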

How the data were processed

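Poly(A) RNA of 12 HN6 and HN30 libraries (2 repeats of 6 conditions) was read from the table of whole-number counts per gene deposited by the authors, without normalization. Per the methods of the study, poly-N, duplicated and low-quality reads had been removed and the rest mapped to hg38; HISAT2 and featureCounts are named in the submitters' processing notes, and the annotation and use of strand are not given in the sources used here. Removing duplicates can lower the counts of abundant genes. All 10 symbols matched GENCODE 44 (GRCh38), which gave lengths and overlaps; promoters came from RefSeq. No column of per-sample values was left out.

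Counts were tested with edgeR 4.0.16 (R 4.3.3; filterByExpr, minimum count 10; TMM factors 0.897 to 1.06; glmQLFit and glmQLFTest), with line as a term for the comparisons over both lines and 6 condition means for those by line; the SE is the log2 fold change over the square root of F. The alternatives were limma-voom (limma 3.58.1), DESeq2 1.42.0, other scalings, no filter, no line term, a replicate block and each library left out. Steps were tested on simulated data; Python 3.11.15, pandas 2.3.3 and matplotlib 3.10.9 served for joins and figures. Per the labels, repeats 1 and 2 were made at separate times, so the number pairs libraries within a line; deviations of same-numbered libraries correlated at 0.0778, 0.219 and 0.242 in HN6 and at -0.0337, 0.405 and -0.0216 in HN30. Members and lists were chosen with earlier results of these data known. Named genes were the 10 members, FAT1, partners called over both lines, and the 5 genes with the highest correlation with the mean of MCM2 to MCM7; HROB, the proliferation markers with values and the genes of the cell type lists stand outside this rule.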

Additional observations from a re-analysis of the deposited data

How the results depend on the processing

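Counts of called MCM genes that moved beyond 1.5 times were as follows. For siFAT1-1 against NC (5 genes), scaling by total counts alone gave 3. For siFAT1-1 against siFAT1-2 (2 genes), limma-voom gave 0. For the interaction of line and knockdown (0 genes), total counts alone, no filter on low counts and DESeq2 gave 1 each. For HN30 against HN6 with NC (0 genes), total counts alone, no filter, limma-voom and DESeq2 gave 1 each. The mean ring sum of the 4 NC libraries, 317 CPM per kilobase, was 504 with the longest coding transcript as the length, since the lengths are shorter. In HN6 the change of MCM10 (0.08) turned to -0.062 with limma-voom. Scaling by total counts moved the median of all genes in HN6 to 0.102, and 7 MCM genes were negative there as with TMM. The causes of the other changes were not tested.

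With the repeat as a replicate block, 0 genes were called between the siRNAs, 2 for the interaction and 1 between the lines with NC; the block moved no other count of calls beyond 1.5 times.

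When single libraries were left out, the count of called genes ran from 1 to 6 over both lines, 0 to 5 in HN6, 4 to 7 in HN30, 1 to 8 for siFAT1-1, 1 to 4 for siFAT1-2, 0 to 3 between the siRNAs, 0 to 6 for the interaction and 0 to 1 between the lines. Directions turned for MCM8 over both lines (-0.40 to 0.13), and in HN6 for MCM3 (-0.87 to 0.24), MCM8 (-0.10 to 0.83), MCM9 (-0.21 to 0.27) and MCM10 (-0.53 to 0.41). An arm left with 1 library was assumed to vary like the others. The lowest count of an MCM gene in a library was 143 (MCM10), and a limit set by depth was not tested.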
